A study of Mus musculus with 8 samples.

Results

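Cholesterol and fatty acids are both built from acetyl-CoA, and 34 genes of these 2 routes were followed in 4T1 cells given acetate. The genes were chosen by function: 22 formed a sterol branch, with the mevalonate and cholesterol enzymes, the regulators Srebf2 and Insig1 and the cholesterol carrier Stard4, and 12 formed a fatty acid branch, with the regulator Srebf1 and the enzymes of synthesis, elongation and desaturation. All 34 were among the 20189 genes measured, and none was at 0 in any library. The 4T1 line is a mouse mammary carcinoma line, labelled wild type here, and the series held 8 mRNA libraries from it. All cells were grown in DMEM with fetal bovine serum, HEPES and antibiotics, and for 48 h they received either 5 mM acetate (n = 4) or water as the vehicle (n = 4). Serum brings cholesterol and fatty acids of its own to both groups. Each vehicle library shared an experiment code with 1 acetate library of the same replicate number, so the 8 libraries form 4 pairs from separate experiments on 1 line.

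The sterol branch joins acetyl-CoA units into mevalonate, turns mevalonate into isoprenoid units, joins these into squalene and closes squalene into lanosterol, which the last enzymes trim to cholesterol. Cytosolic fatty acid synthesis carboxylates acetyl-CoA to malonyl-CoA and builds palmitate from it, after which elongases lengthen the chain and desaturases add double bonds. Both branches are transcribed under the sterol regulatory element-binding proteins (SREBPs), membrane-bound factors that are held in the endoplasmic reticulum by Scap and the Insig proteins when sterols are plentiful and are cut free when sterols fall, Srebf2 acting mainly on sterol genes and Srebf1 on fatty acid genes.

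The promoters are shown first because SREBPs, with NF-Y and Sp1, are known to act on these genes through short promoter elements. RefSeq promoter windows of build GRCm38.p6, from 250 bases before to 50 bases after a transcription start, were at hand for 27 members, and not for Stard4, Fdps, Fdft1, Sqle, Scd1, Scd2 and Fads1. A match to TCACNCCA, a spelling of the sterol regulatory element, was searched on both strands and stood in 3 of 18 sterol promoters (Srebf2, Hmgcs1 and Msmo1) and in 0 of 9 fatty acid promoters, against 4.6% of the 11816 measured genes with a window. A gene with several windows was counted if any of them held a match. CCAAT, the element of the factor NF-Y, stood in 17 of 18 sterol promoters (94.4%), in 6 of 9 fatty acid promoters (66.7%) and in 42.5% of the measured genes. GGGCGG, the GC box, stood in 88.9% of the sterol promoters, 44.4% of the fatty acid promoters and 64.3% of the measured genes, and CACGTG, an E-box, in 22.2%, 11.1% and 11.0%. A match is only a run of letters, and no binding was measured. In the stretches below, written 5′ to 3′ on the strand of the gene, capitals mark TCACNCCA and CCAAT, the latter spelt ATTGG where it lies on the other strand. The first 3 carry both elements, Insig1 and Lss carry CCAAT only, and Fasn and Elovl5 stand for the fatty acid branch. In Fasn a CCAAT and an ATTGG share letters.
Hmgcs1, chr13:119690111-119690320, plus strand: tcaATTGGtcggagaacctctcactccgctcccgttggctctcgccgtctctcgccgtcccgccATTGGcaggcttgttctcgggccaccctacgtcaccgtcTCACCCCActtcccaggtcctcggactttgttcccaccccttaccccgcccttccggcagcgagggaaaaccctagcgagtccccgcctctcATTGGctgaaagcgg
Srebf2, chr15:82147089-82147149, plus strand: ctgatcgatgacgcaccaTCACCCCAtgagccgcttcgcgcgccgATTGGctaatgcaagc
Msmo1, chr8:64733624-64733763, minus strand: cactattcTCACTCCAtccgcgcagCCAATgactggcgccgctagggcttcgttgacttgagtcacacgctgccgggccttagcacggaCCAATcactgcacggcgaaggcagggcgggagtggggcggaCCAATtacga
Insig1, chr5:28071182-28071232, plus strand: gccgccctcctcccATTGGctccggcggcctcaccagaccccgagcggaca
Lss, chr10:76531515-76531565, plus strand: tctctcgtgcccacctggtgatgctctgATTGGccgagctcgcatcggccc
Fasn, chr11:120824593-120824652, minus strand: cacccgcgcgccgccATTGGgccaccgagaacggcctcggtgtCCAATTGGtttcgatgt
Elovl5, chr9:77917280-77917357, plus strand: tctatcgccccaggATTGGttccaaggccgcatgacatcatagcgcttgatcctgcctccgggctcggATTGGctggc

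Each library held 19895088 to 29305620 reads, and the deposited values are normalised reads, scaled so that every library sums to 20000000. Counting error is therefore small for most members, the lowest single value being 36.6 for Acacb. The epithelial markers Krt8, Krt18, Krt19, Epcam and Cdh1 were all measured. They summed to 42130 to 59632 normalised reads in vehicle libraries and 44422 to 60637 in acetate libraries. With the pair as a block 2 of the 5 rose at a limma adjusted p under 0.05, beside 5.99% of all genes. They were Krt19 by 0.40 (limma adjusted p = 0.000254) and Cdh1 by 0.15 (limma adjusted p = 0.00592), in 4 of 4 pairs each. The rest did not pass. Epcam changed by 0.07, Krt8 by -0.06 (lower in 4 of 4 pairs) and Krt18 by -0.05 (lower in 3 of 4). Of the adipocyte markers 1 of 5 was measured (Fabp4, at most 6.61), of the immune markers 2 of 4 (summed, 69.1 to 192), of the endothelial markers 2 of 3 (2.44 to 7.06), and of the hepatocyte markers 0 of 3. The libraries of replicate 1 stood apart in both groups, with median-of-ratios size factors of 0.898 and 0.912 where the other 6 libraries ranged from 1.02 to 1.05. Results that rest on pair 1 are therefore given with and without it.

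The comparison asked which genes of either route changed with added acetate, and was run with limma on log2(value + 1) over all 20189 genes, with adjustment by Benjamini and Hochberg and a gene called at an adjusted p under 0.05. With the libraries taken as 2 unpaired groups, 0 of 34 members were called and 0 had an unadjusted p under 0.05, on a background of 0.0% of all genes called and 353 genes (1.75%) with an unadjusted p under 0.05. edgeR on the recovered reads also called 0 genes in that design and DESeq2 called 7, none a member. With the pair as a block the same test called 8.64% of all genes, and 4 of 34 members, all in the fatty acid branch. The experiments differed far more than the treatments did, since over the sterol branch the replicate number took 87.8% of the sum of squares and the treatment 2.6%, over the fatty acid branch 95.8% and 2.7%, and over all genes 74.0% and 8.4%. The values below are therefore read pair by pair, as the log2 change from the vehicle to the acetate library of 1 pair. An exact sign-flip test of 1 gene over 4 pairs cannot give a two-sided p below 0.125, so none is given. In these bulk libraries a lower share of cells that express a gene and less RNA per cell cannot be told apart.

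Of the 22 sterol genes, 18 were lower with acetate in pair 1, whereas 19 were higher in pair 2, 14 in pair 3 and 20 in pair 4. The median change of the branch was -0.14 in pair 1, 0.15 in pair 2, 0.07 in pair 3 and 0.19 in pair 4, where the median over all genes was 0.02, 0.00, 0.00 and 0.03. Pair 1 held the lowest of the 4 changes in 19 of 22 sterol genes (86.4%), against 25.2% of all genes. In 12 of 22 (54.5%) the gene was lower in pair 1 and higher in the other 3 pairs, a pattern that 5.69% of all genes showed and that was named after the values had been seen. With median-of-ratios scaling these counts were 20 lower in pair 1, and 17, 13 and 20 higher in pairs 2, 3 and 4. Again 12 showed the split pattern, with Sc5d in place of Acat2. The only sterol gene higher in 4 of 4 pairs was Sc5d (1 of 22, against 16.7% of all genes), and with median-of-ratios scaling it was 0 of 22. The mean change over the pairs ranged from -0.07 (Msmo1) to 0.16 (Hsd17b7) and its median over the branch was 0.06, beside 0.02 over all genes.

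**Figure D1:**
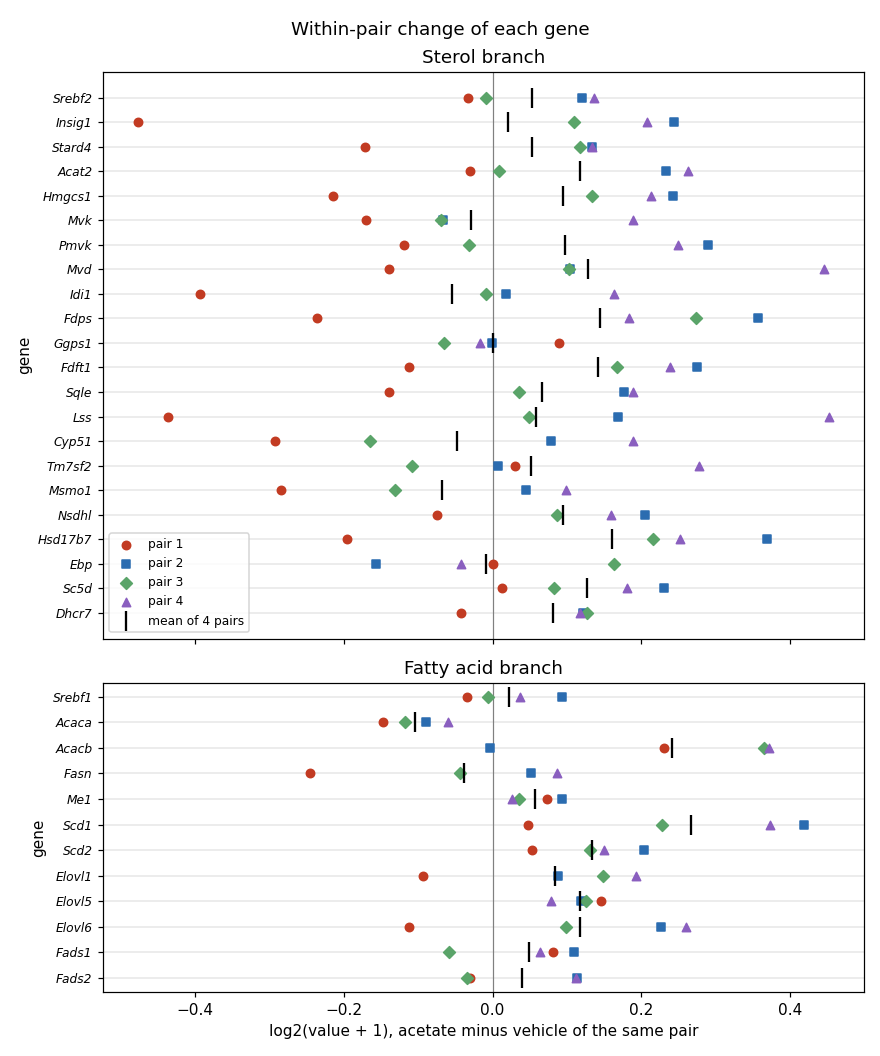
Change of each of the 34 genes in each pair. The horizontal axis is log2(value + 1) of the acetate library minus that of the vehicle library of the same pair, colours and shapes mark pairs 1 to 4, and the black bar is the mean of the 4 pairs. In the sterol branch pair 1 is the lowest point in 19 of 22 genes, and in the fatty acid branch in 7 of 12.

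With the block, 0 of 22 sterol genes were called by limma, by edgeR (11.9% of all genes) or by DESeq2 (5.58%), while 3 (Acat2, Fdft1 and Sc5d) had an unadjusted limma p under 0.05, a share below the 22.4% of all genes that did so. Nearest to a call was Sc5d, the desaturase that puts in a late double bond of the sterol ring (chr9:42251595-42264256). It held 2022, 2049, 1993 and 1643 normalised reads in vehicle replicates 1 to 4 and 2040.5, 2404, 2112 and 1864 in acetate replicates 1 to 4. Pair 4 was the lowest in both groups, and the groups overlapped. The mean change was 0.13 ± 0.04 (SE, adjusted p = 0.0631 with the block), and when the test kept only genes with a mean above 10 normalised reads Sc5d was called (adjusted p = 0.0315).

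The regulators of the branch differed in how widely their pairs spread. Srebf2, which encodes the sterol factor SREBP2, was at 4147, 4185, 4501 and 4133 in the vehicle libraries and 4053, 4547, 4472 and 4542 in the acetate libraries. Its changes were -0.03, 0.12, -0.01 and 0.14 in pairs 1 to 4, so that pairs 1 and 3 were near 0 and pairs 2 and 4 a little above it, with a mean of 0.05 ± 0.03 (SE, adjusted p = 0.392 with the block). Insig1, the retention protein whose own gene answers to SREBPs, had 1313, 1479.6, 1434 and 1693 in the vehicle libraries and 943, 1752, 1548 and 1956 in the acetate libraries. It fell by 0.48 on the log2 scale in pair 1, to the lowest value of all 8 libraries, and was higher by 0.24, 0.11 and 0.21 in pairs 2 to 4. Over 4 pairs its mean change was 0.02 ± 0.09 (adjusted p = 0.935). Stard4, a soluble carrier that moves cholesterol between membranes, went the same ways, at -0.17 in pair 1 and 0.13, 0.12 and 0.13 in pairs 2 to 4.

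The enzymes from acetyl-CoA to isoprenoid units showed the split in 4 of 8. Hmgcs1, the synthase that makes HMG-CoA, was the most abundant of them per kilobase of exon, at 3508, 3563, 3333 and 2602 in the vehicle libraries and 3025, 4213, 3657 and 3017 in the acetate libraries, and it changed by -0.21, 0.24, 0.13 and 0.21 in pairs 1 to 4. Acat2, the thiolase that makes acetoacetyl-CoA, changed by -0.03, 0.23, 0.01 and 0.26, and Mvd, the decarboxylase that makes isopentenyl diphosphate, by -0.14, 0.10, 0.10 and 0.45. These 3 genes were lower in pair 1 and higher in pairs 2 to 4, although with median-of-ratios scaling Acat2 left the pattern at pair 3. Fdps, farnesyl diphosphate synthase, was the fourth, with -0.24, 0.36, 0.27 and 0.18, but it was also the least abundant sterol gene per kilobase (127 ± 18.1 in vehicle, 145 ± 42.5 in acetate, SD, n = 4). The kinases differed, Pmvk being higher in pairs 2 and 4 only (0.29 and 0.25) and Mvk in pair 4 only (0.19). Idi1, the isomerase of the isoprenoid units, fell by 0.39 in pair 1 and changed by 0.02, -0.01 and 0.16 in the others. Ggps1, which makes geranylgeranyl diphosphate for protein prenylation and so leaves the sterol route, had the mean change nearest to 0, with pair changes between -0.07 and 0.09 and pair 1 the highest.

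From squalene onwards the order of the pairs was much the same. Fdft1, squalene synthase, was at 1434, 1795, 1606 and 1519.8 in the vehicle libraries and 1326, 2172, 1803 and 1794 in the acetate libraries. It changed by -0.11, 0.28, 0.17 and 0.24, lower in pair 1 alone. Sqle, the epoxidase that oxidises squalene, changed by -0.14, 0.18, 0.04 and 0.19, and Lss, which closes the ring to lanosterol, by -0.44, 0.17, 0.05 and 0.45. Of the branch Lss had the widest spread over the pairs, around a mean of 0.06 ± 0.10 (SE). Hsd17b7, the reductase that acts on the sterol ketone, had the largest mean change of the branch at 0.16 ± 0.08 (SE, adjusted p = 0.252). Its vehicle libraries held 799, 401, 374 and 312 and its acetate libraries 697, 519, 434 and 372, so both libraries of replicate 1 lay above all others. Nsdhl, which removes the methyl carbon as carbon dioxide, and Dhcr7, the last reductase of the route, had pair 1 changes of -0.07 and -0.04 and were higher in the other pairs, Dhcr7 by 0.12, 0.13 and 0.12. Msmo1, the oxidase of the methyl groups, had the lowest mean change (-0.28, 0.04, -0.13 and 0.10 in pairs 1 to 4) and, with Cyp51, the lanosterol demethylase (-0.29, 0.08, -0.17 and 0.19), was lower in pairs 1 and 3. Tm7sf2, a sterol reductase, changed by 0.03, 0.01, -0.11 and 0.28, and Ebp, the sterol isomerase, changed by 0.00, -0.16, 0.16 and -0.04 with pair 3 the highest.

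Leaving out pair 1 changed the calls of the branch. With pairs 2 to 4 alone, limma with the block called 6 of 22 sterol genes, all higher, beside 8.25% of all genes called in either direction and 5.47% called higher. These were Hsd17b7 at 0.28 ± 0.06 (SE, adjusted p = 0.0134), Fdft1 at 0.23 ± 0.04 (adjusted p = 0.0035), Hmgcs1 at 0.20 ± 0.03 (adjusted p = 0.00449), Insig1 at 0.19 ± 0.04 (adjusted p = 0.0119), Sc5d at 0.17 ± 0.04 (adjusted p = 0.0211) and Stard4 at 0.13 ± 0.03 (adjusted p = 0.0382). Hmgcs1 lies at chr13:119690379-119708260, Insig1 at chr5:28071363-28078662, Fdft1 at chr14:63145150-63179578 and Hsd17b7 at chr1:169949535-169969241 (GRCm38). Srebf2 was not among them (adjusted p = 0.19). Leaving out pair 2, 3 or 4 in turn called 0 of 22, but those fits called only 3.06%, 2.03% and 2.67% of all genes. These calls rest on 3 experiments, and on leaving out the pair whose changes ran the other way, so they describe pairs 2 to 4 and are no test of the branch over all 4. Nothing in the labels sets pair 1 apart beyond its experiment code, and what differs in it was not tested.

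**Figure D2:**
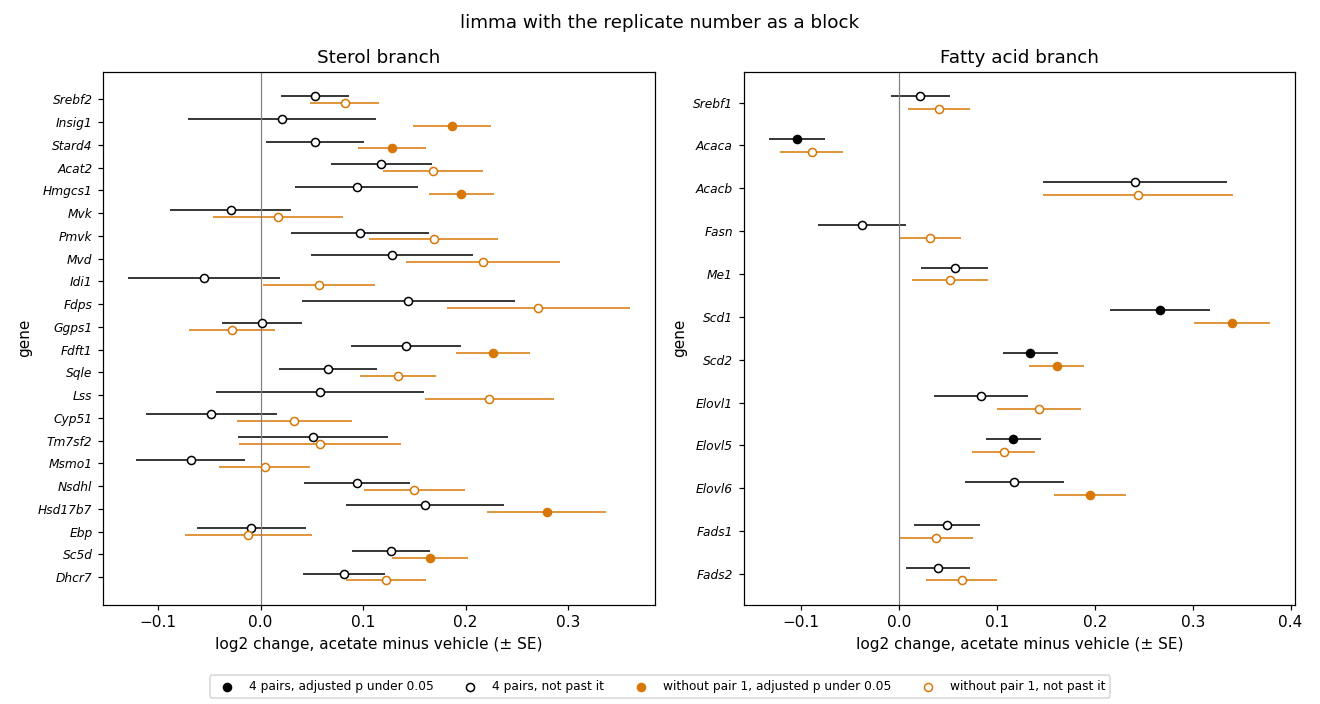
Fitted log2 change of each gene, acetate minus vehicle, with its standard error, from limma with the pair as a block over 4 pairs (black) and over pairs 2 to 4 (orange). Filled circles have an adjusted p under 0.05. No sterol gene is filled in black and 6 are filled in orange, while 4 fatty acid genes are filled in black and 3 in orange.

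In the fatty acid branch the desaturases Scd1 and Scd2 and the elongase Elovl5 rose with acetate and the carboxylase Acaca fell, in 4 of 4 pairs each, when the pairs were kept together. These 4 of 12 genes (33.3%) were called with the block, 3 higher and 1 lower, beside 5.99% of all genes called higher and 2.65% called lower. With median-of-ratios scaling, which called 9.02% of all genes (4.95% higher and 4.07% lower), 3 of 12 were called. Me1, the malic enzyme that supplies NADPH, was also higher in 4 of 4 pairs but by little, from 0.03 to 0.09 (adjusted p = 0.369). That made 4 of 12 (33.3%) higher in every pair, against 16.7% of all genes, and 1 of 12 (8.33%) lower in every pair, against 11.4%. With median-of-ratios scaling 3 of 12, Scd1, Scd2 and Elovl5, were higher in every pair. The branch median was 0.01 in pair 1, 0.10 in pair 2, 0.07 in pair 3 and 0.10 in pair 4, so pair 1 was near 0 here and not below it as in the sterol branch.

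Scd1 and Scd2 encode the desaturases that turn saturated palmitate and stearate into monounsaturated fatty acids. Scd1 (chr19:44394455-44407879) held 1245, 2350.4, 2307 and 2425 normalised reads in vehicle replicates 1 to 4 and 1287, 3141, 2703 and 3142 in acetate replicates 1 to 4. Both libraries of replicate 1 were far below the rest, so the groups overlapped although each pair rose, by 0.05, 0.42, 0.23 and 0.37. Its mean change of 0.27 ± 0.05 was the largest of the 34 genes (SE, adjusted p = 0.00866 with the block). Scd2 (chr19:44293674-44306864), a neighbour of Scd1 on the chromosome, held 19524, 38700.0, 36199.9 and 41820.0 in the vehicle libraries and 20256, 44565, 39631 and 46395 in the acetate libraries. Again replicate 1 was the lowest in both groups, and the changes were 0.05, 0.20, 0.13 and 0.15. The mean was 0.13 ± 0.03 (adjusted p = 0.0124). In both genes pair 1 gave the smallest change and pair 2 the largest.

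Elovl5, an elongase of polyunsaturated fatty acids (chr9:77917364-77984519), varied least between experiments of the 4. Its vehicle libraries held 2266, 2269.9, 2282 and 2167 and its acetate libraries 2507, 2465, 2489 and 2288. It was the only member whose groups did not overlap, as was so for 1.65% of all genes, with vehicle replicate 3 only just below acetate replicate 4, and with median-of-ratios scaling the groups overlapped. The changes were 0.15, 0.12, 0.12 and 0.08, pair 1 being the highest, with a mean of 0.12 ± 0.03 (SE, adjusted p = 0.0261). That call was lost with median-of-ratios scaling (adjusted p = 0.0598) and in DESeq2 (adjusted p = 0.174). Acaca, the carboxylase that makes malonyl-CoA for synthesis (chr11:84129672-84401651), held 3357, 2698, 2771 and 2346 in the vehicle libraries and 3029, 2537, 2554 and 2250.3 in the acetate libraries. Replicate 1 was highest and replicate 4 lowest in both groups, and the changes were -0.15, -0.09, -0.12 and -0.06. The mean was -0.10 ± 0.03 (adjusted p = 0.0459). That call was lost in DESeq2 (adjusted p = 0.0505), with a pseudocount of 0.1 in limma (adjusted p = 0.0566) and in edgeR without vehicle replicate 3 (adjusted p = 0.0714).

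The calls of the branch needed all 4 pairs or the loss of pair 1. Without pair 1 limma with the block called Scd1 (0.34 ± 0.04, SE, adjusted p = 0.000675), Scd2 (adjusted p = 0.00522) and Elovl6 (0.20 ± 0.04, adjusted p = 0.00852), an elongase of palmitate, and no longer Elovl5 (adjusted p = 0.066) or Acaca (adjusted p = 0.123). Without pair 2, 3 or 4 it called 0 of 12, the adjusted p of Scd1 being 0.0732, 0.0878 and 0.112 and that of Scd2 0.123, 0.108 and 0.0892. Over all genes those fits called 3.06%, 2.03% and 2.67%. DESeq2 with the block called Scd1 and Scd2 only, beside 5.58% of all genes.

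**Figure D3:**
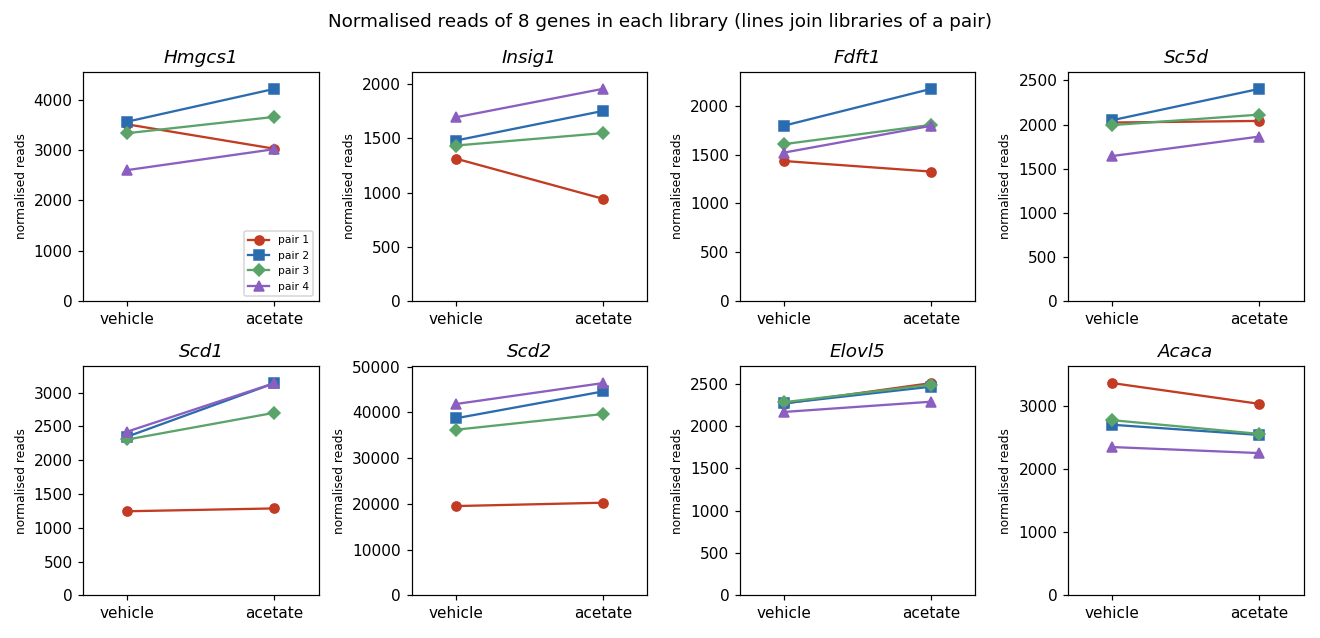
Normalised reads of 8 genes in each of the 8 libraries, on linear axes from 0, with a line joining the vehicle and the acetate library of each pair. Scd1 and Scd2 rise in each pair from a level in pair 1 that is far below the others, Acaca falls in each pair, and Hmgcs1, Insig1 and Fdft1 fall in pair 1 and rise in pairs 2 to 4.

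The remaining fatty acid genes were not called over 4 pairs. Srebf1, whose products SREBP1a and SREBP1c drive fatty acid genes, held 2000.2, 3172, 3333 and 3715 in the vehicle libraries and 1953, 3384, 3319 and 3811 in the acetate libraries. Replicate 1 was the lowest in both groups, the groups overlapped, and the changes of -0.04, 0.09, -0.01 and 0.04 averaged 0.02 ± 0.03 (SE, adjusted p = 0.736 with the block). Fasn, the synthase that builds palmitate, held 25499, 17895, 17602 and 12079.6 and 21512, 18555, 17075 and 12829. It was lower in pair 1 (-0.24) and pair 3 (-0.04) and higher in pairs 2 and 4 (0.05 and 0.09), and it had the lowest pair 1 change of this branch. Acacb, the carboxylase whose malonyl-CoA restrains fatty acid oxidation, was the least abundant member per kilobase, at 36.6, 155, 132 and 184 in the vehicle libraries and 43.2, 155, 169.9 and 239 in the acetate libraries, and its mean change of 0.24 had an SE of 0.09 (adjusted p = 0.154). Elovl1, an elongase of very long chains, and Elovl6 were lower in pair 1 (-0.09 and -0.11) and higher in the other pairs, Elovl6 by 0.23, 0.10 and 0.26. Fads1 and Fads2, the front-end desaturases that make polyunsaturated fatty acids, had mean changes of 0.05 and 0.04, both being lower in pair 3 (-0.06 and -0.03).

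Levels can be set against each other only per length, here as normalised reads per kilobase of exon averaged over the 8 libraries. On that scale Scd2 stood highest at 6568, followed by Fasn at 1633, Fads2 at 1228, Hmgcs1 at 732 and Elovl5 at 665. Scd1 was at 475, so that Scd2 was the main stearoyl-CoA desaturase transcript in these cells. Lowest were Acacb at 14.5, Fdps at 32.4 and Tm7sf2 at 56.8, and Acaca at 158 stood above its paralog Acacb. The regulators were alike in level per kilobase, Srebf2 at 602, Srebf1 at 548 and Insig1 at 489.7.

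The members also varied among the 4 vehicle libraries. The ratio of the highest to the lowest vehicle value was 5.03 for Acacb, 2.85 for Tm7sf2, 2.64 for Idi1 and 2.56 for Hsd17b7, and was lowest at 1.03 for Me1 and 1.05 for Elovl5. Vehicle replicate 1 was the lowest of the 4 for 10 members, including Scd1, Scd2, Srebf1, Fads1, Acacb, Tm7sf2 and Stard4, and the highest for 9, including Fasn, Acaca, Elovl1, Elovl6, Idi1, Sqle and Hsd17b7. Vehicle replicate 4 was the lowest for most sterol enzymes, among them Hmgcs1, Mvk, Mvd, Idi1, Sqle, Lss, Cyp51 and Msmo1, and for Fasn and Acaca.

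**Figure D4:**
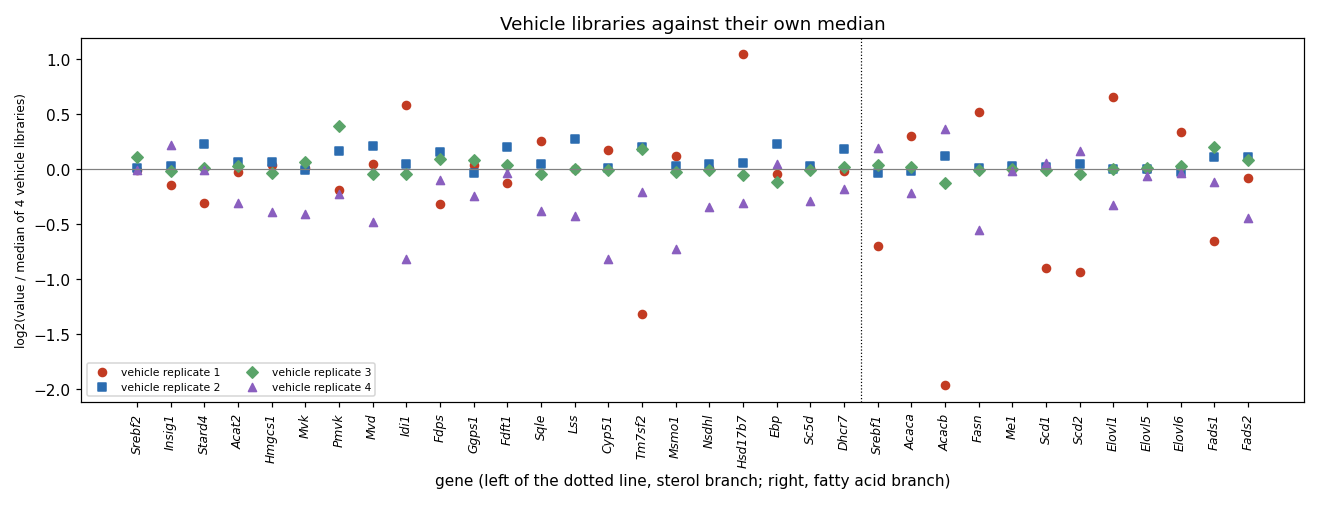
Level of each of the 34 genes in the 4 vehicle libraries, as log2 of the value over the median of the 4. Replicate 1 (red) lies far below the others for Acacb, Tm7sf2, Scd1 and Scd2 and above them for Hsd17b7 and Elovl1, and replicate 4 (purple) is low for most sterol genes.

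Genes around the 2 routes were followed as 6 further lists, each read with the block against the same background of 8.64% called. Of 10 genes that handle SREBPs, 5 were called, and 4 of them are described here. Insig2, the second retention protein, rose by 0.19 (adjusted p = 0.00592), while Scap, the escort of SREBPs, changed by -0.15 (adjusted p = 0.00745). Erlin1, an endoplasmic reticulum protein that binds SREBP complexes, changed by -0.21, and the ubiquitin ligase Rnf139 by -0.17, so that 3 of these 4 fell. Each of the 4 kept its direction in 4 of 4 pairs, pair 1 included. Scap held 2529, 2061, 2234 and 1653 in the vehicle libraries and 2299, 1866, 1984 and 1479.9 in the acetate libraries, and Insig2 held 641, 1319, 1156 and 1505 and 755, 1485, 1290.1 and 1708. The groups overlapped in both genes, since the experiments differed in level. Without pair 3, none of the 4 was called, and the adjusted p of Scap was then 0.072 and that of Insig2 0.0517. Without pair 2 it was Insig2 alone, and without pair 4 again none. Over all genes the fits without pair 3, pair 2 and pair 4 called 2.03%, 3.06% and 2.67%.

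Of 14 genes for sterol transport, storage and the liver X receptors 3 were called, all higher. Lipa, the lysosomal lipase that frees cholesterol from its esters, rose by 0.51 ± 0.05 (SE, adjusted p = 0.000295), from 262, 422, 472 and 571 in the vehicle libraries to 374, 659, 629 and 789 in the acetate libraries. The pairs rose by 0.51, 0.64, 0.41 and 0.47, the groups overlapped, and the gene was called whichever pair was left out. Npc2, which hands on cholesterol inside lysosomes, rose by 0.11 and Stard3, a sterol carrier of late endosomes, by 0.16, with adjusted p of 0.0296 and 0.0301 that rose to 0.0724 and 0.0527 with median-of-ratios scaling. Both calls were also lost in DESeq2 (adjusted p = 0.121 and 0.23) and without pair 2, 3 or 4. Stard3 was lost without pair 1 too (adjusted p = 0.0628). Of 12 genes that use isoprenoids only Pdss1, which makes the tail of coenzyme Q, was called (1 of 12, -0.27, adjusted p = 0.00383, and 0.0506 without pair 3).

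Of 17 genes for elongation and mitochondrial synthesis of fatty acids, 14 were measured and 3 were called. They were the dehydratases Hacd4 (0.60 ± 0.08, SE, adjusted p = 0.00112) and Hacd1 (-0.27, adjusted p = 0.02), which moved in opposite directions, and the reductase Tecr (0.13, adjusted p = 0.0162). Hacd4 was called whichever pair was left out, whereas Hacd1 and Tecr were lost without pair 2, 3 or 4 and in DESeq2 (adjusted p = 0.0755 and 0.0735). Of 19 genes that activate fatty acids or put them into glycerolipids, 4 were called and all were higher. They were the acyl-CoA synthetases Acsl6 (0.37) and Acsl4 (0.16), the lipid droplet protein Plin2 (0.20 ± 0.03, SE, adjusted p = 0.0013) and the phosphatidate phosphatase Lpin2 (0.14). Acsl4 was higher in 3 of 4 pairs, with -0.05 in pair 1, and was not called with median-of-ratios scaling (adjusted p = 0.0751). Plin2 rose from 2845, 2905, 2702 and 3137 in the vehicle libraries to 3232, 3297, 3125 and 3694 in the acetate libraries, and was called whichever pair was left out. Acsl6 was too, and without pair 2, 3 or 4 these 2 were the only calls of the list. Without pair 1 the list had 6 calls, all higher. The 2 that joined, named after their values were seen, were Acsl3 (-0.10, 0.16, 0.12 and 0.19 in pairs 1 to 4) and Lpin1 (-0.39, 0.18, 0.15 and 0.31), which were lower in pair 1 like most sterol genes. Of 17 paralogs of members, 13 were measured and 2 were called, Insig2 and Stard6, the latter at a mean of 38.3 normalised reads in vehicle and 22.8 in acetate.

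Some members share sequence with other genes, and the sources used here do not say if reads were counted by strand. Fdps matches 4 processed pseudogenes at 96.1% to 98.9% identity and shares 1124 bases of exon with Gm43738 on its own strand, so its level is uncertain. Acaca, 1 of the 4 called genes, is 99.2% identical to the pseudogene Gm5182 over 6118 bases, and Gm5182 was listed at a mean of 39.3 normalised reads. Scd2 and Scd1 are 95.5% identical over 623 bases. Fdft1 shares 774 bases of exon with Ctsb on the other strand, which was listed at 5802, and Tm7sf2 shares 532 bases with Vps51 on its own strand. Acat2 is 97.7% identical to Acat3 over 1477 bases (listed at 5.8) and matches Tcp1, which was listed at 15258, at 98.7% over 445 bases, and Idi1, Me1, Elovl6, Ggps1 and Insig1 also have close copies. Elovl5 and Sc5d had no such copy or overlap.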

How the data were processed

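RNA from 4T1 cells (4 vehicle and 4 acetate libraries) was sequenced from a stranded mRNA preparation. According to the submitters' processing notes, STAR and HTSeq on GRCm38/mm10 gave reads per gene, with versions not given in the sources used here, and a gene was kept if at least 4 of the 8 samples held reads of it. The deposited values are a normalised read signal, in which the authors divided the counts by library size so that every library sums to 20000000. Within 0.02 reads, 100% of the values were whole multiples of 1 read, which gave back depths of 19895088 to 29305620 reads.

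The 34 genes and the 6 related lists were chosen with earlier results of these data known. Ensembl identifiers were given symbols, positions and exon lengths from the GRCm38 annotation. limma 3.58.1 (R 4.3.3; trend, two-sided) was run on log2(value + 1), a pseudocount that understates the change of low genes, over all 20189 genes with Benjamini-Hochberg adjustment. The libraries entered as 2 groups, or with the replicate number as a block. The numbers pair the libraries because the labels give both libraries of a number 1 experiment code. The deviations from the group means correlated at 0.81, 0.27, 0.20 and 0.69 in pairs 1 to 4 over 18187 genes. Libraries of different numbers were not correlated with each other, so these values are no check of the pairing. The p-values measure the spread between these experiments on 1 line. edgeR 4.0.16 and DESeq2 1.42.0 on the recovered reads, pseudocounts of 0.1 and 5, a mean above 10, median-of-ratios scaling and leaving out each library or pair were the alternatives. The fits were tested on simulated counts. Signs and overlaps after median-of-ratios scaling were counted after seeing the data. All values are shown for members called with the block; of the others, the regulators Srebf2, Srebf1 and Insig1 and the largest and smallest mean changes were to be described, and up to 5 called genes per related list named, of which 1 is not reported here. Close copies are transcripts at least 95% identical over 150 bases, by BLAST.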

Additional observations from a re-analysis of the deposited data

Results flagged for a closer look

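Among the 34 genes 102 groups of 4 values (vehicle, acetate and the within-pair log2 changes) were tested for a value far from the other 3 by Dixon's ratio, the gap to the nearest value over the whole range, against its 95% critical value. By chance about 5 of 102 would pass, and 10 did, of which 6 lay in replicate 1, 3 in replicate 4 and 1 in replicate 3.

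In replicate 1, the change of Stard4 was -0.17 where the other pairs gave 0.12 to 0.13 (ratio 0.948), and that of Dhcr7 was -0.04 where the others gave 0.12 to 0.13 (ratio 0.939). Scd1 held 1245 normalised reads in vehicle replicate 1 and 2307 to 2425 in the other vehicle libraries (ratio 0.9). Tm7sf2 held 114 in acetate replicate 1 and 290.4 to 320 in the other acetate libraries (ratio 0.857). Srebf2 was low in acetate replicate 1, at 4053 beside 4472 to 4547 (ratio 0.85). Elovl6 was high in vehicle replicate 1, at 3429 beside 2636 to 2756 (ratio 0.849).

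In vehicle replicate 4, Sc5d held 1643 beside 1993.5 to 2049 (ratio 0.862), Elovl5 held 2167 beside 2266 to 2282 (ratio 0.861), and Nsdhl held 453 beside 570.0 to 593 (ratio 0.834). Srebf2 was high in vehicle replicate 3, at 4501 beside 4133 to 4185 (ratio 0.859). Both libraries of replicate 4 were low for Sc5d and Elovl5. The change in pair 4 lay within the range of the other pairs for Sc5d. For Elovl5 it lay below that range, at 0.08 beside 0.12 to 0.15.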

How the results depend on the processing

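The calls depended on the block and on the pairs. Without the block limma called 0 genes, edgeR 0 and DESeq2 7, and with it limma called 1744 (1209 higher and 535 lower), edgeR 2400 and DESeq2 1126, while median-of-ratios scaling gave 1000 higher and 821 lower. Leaving out 1 pair gave 409 to 1665 calls. In the sterol branch the block changed no call (0 of 22), a mean above 10 gave 1, and leaving out 1 pair gave 0 to 6, the 6 without pair 1. In the fatty acid branch the block gave 4 of 12 in place of 0, and with it a pseudocount of 0.1 gave 3. With the block edgeR without vehicle replicate 3 (the shallowest) gave 2, DESeq2 gave 2, and leaving out 1 pair gave 0 to 3, the 3 without pair 1. The count of sterol genes higher in 4 of 4 pairs was 0 with median-of-ratios scaling. The branch medians stayed above 0 except for the sterol branch without acetate replicate 2 (-0.001).

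The directions of single genes depended on the kind of fit. With the block, leaving out pair 1, 2, 3 or 4 turned the sign of 6, 3, 1 and 4 of 34 members. Acacb then stayed between 0.20 and 0.32 and Scd2 between 0.11 and 0.16. In the unpaired fit, leaving out 1 library breaks a pair, so level differences between experiments enter the change. The ranges below pool both kinds of fit. With a library or a pair left out, 22 of 34 mean log2 changes turned sign in at least 1 fit, their lowest and highest values being Acacb -0.274 to 0.759, Cyp51 -0.268 to 0.093, Ebp -0.066 to 0.058, Elovl1 -0.052 to 0.274, Fads1 -0.131 to 0.217, Fads2 -0.08 to 0.137, Fasn -0.22 to 0.139, Ggps1 -0.067 to 0.076, Hmgcs1 -0.01 to 0.196, Hsd17b7 -0.008 to 0.446, Idi1 -0.308 to 0.159, Insig1 -0.108 to 0.243, Lss -0.081 to 0.223, Msmo1 -0.26 to 0.068, Mvd -0.011 to 0.221, Mvk -0.138 to 0.022, Pmvk -0.012 to 0.243, Scd2 -0.114 to 0.409, Sqle -0.051 to 0.162, Srebf1 -0.169 to 0.232, Stard4 -0.056 to 0.225 and Tm7sf2 -0.29 to 0.399 In edgeR without vehicle replicate 3, Insig1 turned to -0.002 (-0.007 with the block), Sqle to -0.005, Hsd17b7 to -0.054 and Elovl1 to -0.031. Ggps1, near 0, turned to -0.018 with median-of-ratios scaling, -0.010 in edgeR and -0.013 in DESeq2, and with the block to -0.018, -0.014 and -0.017. Over 4 pairs with the block limma called none of these except Scd2, which was below 0 only without vehicle replicate 1 in the unpaired fit. The cause of these changes was not tested. The number of pairs limits the precision, and levels of Acacb and Fdps rest on the fewest reads per kilobase.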
